A study of Homo sapiens with 6 samples.

Results

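The genes described here encode the chains of the major histocompatibility complex (MHC) class I molecule and the proteins that load it with peptide, taken by name from the table of gene expression: the heavy chains *HLA-B*, *HLA-C*, *HLA-E* and *HLA-F*, the light chain *B2M*, the transactivator *NLRC5*, the peptide transporter subunits *TAP1* and *TAP2*, and the tapasin gene *TAPBP*. These are 9 of 62710 rows analysed, and 8 of them were tested, along with all other genes whose mean over the libraries reached 10, 16347 in all. RNA from H526, a cell line of small cell lung cancer (SCLC), was sequenced in 3 libraries of parental cells, numbered 1 to 3, and in 3 libraries of onvansertib-resistant cells, numbered 7 to 9. Both came from H526 cells kept in RPMI-1640 with fetal bovine serum, and the resistant cells had in addition been passed through onvansertib, an inhibitor of the mitotic kinase PLK1, from 10 nM up to a final 75 nM over a year or more. The resistant cells are 1 population selected from 1 line, and RNA was harvested on 3 separate occasions, so that the p-values below measure the spread between these libraries and not between independent selections.

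In a class I molecule, a polymorphic heavy chain pairs with the invariant light chain beta-2-microglobulin and holds a short peptide at the cell surface, where T cells read it. Peptides cut by the proteasome are carried into the endoplasmic reticulum by the transporter made of TAP1 and TAP2, and tapasin holds the empty class I molecule beside that transporter until a peptide binds. NLRC5 does not bind DNA by itself, and acts on class I promoters through a complex of RFX, CREB or ATF, and NF-Y factors that sits on the X and Y boxes. Low class I expression is a known feature of SCLC, and interferon is known to raise these genes through IRF and STAT factors.

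The promoters that carry these boxes are shown first, since they are where these factors act on the members. RefSeq (GRCh38.p14) gave the promoters of 7 of the 9 genes, *NLRC5* and *HLA-E* having no entry, and *TAP1* had 2 start sites. Each sequence below is the 250 bases before the start site, 5′ to 3′ on the gene's own strand, and capitals mark every match, on either strand, of TGACG (the core of the CREB and ATF site in the X box), ATTGG (the Y box, bound by NF-Y), GAAANNGAA and GAANNGAAA (the interferon-stimulated response element, ISRE, in either phase), TTCNNNGAA (the STAT site, GAS) and GGGATTCCC (an NF-kB site). The sequences are those of *B2M* on chr15:44711267-44711516 (plus strand), *HLA-B* on chr6:31357180-31357429 (minus strand), *HLA-C* on chr6:31272093-31272342 (minus strand) and *HLA-F* on chr6:29723184-29723433 (plus strand).
B2M: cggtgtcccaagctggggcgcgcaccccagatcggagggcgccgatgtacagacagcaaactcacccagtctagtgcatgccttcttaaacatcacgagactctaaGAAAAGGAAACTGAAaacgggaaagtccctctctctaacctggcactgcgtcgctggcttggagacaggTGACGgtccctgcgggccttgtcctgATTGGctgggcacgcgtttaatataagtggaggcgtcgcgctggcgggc
HLA-B: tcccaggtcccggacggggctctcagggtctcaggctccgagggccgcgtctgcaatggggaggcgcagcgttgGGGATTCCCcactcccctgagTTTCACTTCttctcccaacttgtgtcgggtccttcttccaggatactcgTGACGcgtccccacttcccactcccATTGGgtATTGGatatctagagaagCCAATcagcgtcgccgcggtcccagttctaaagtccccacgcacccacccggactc
HLA-C: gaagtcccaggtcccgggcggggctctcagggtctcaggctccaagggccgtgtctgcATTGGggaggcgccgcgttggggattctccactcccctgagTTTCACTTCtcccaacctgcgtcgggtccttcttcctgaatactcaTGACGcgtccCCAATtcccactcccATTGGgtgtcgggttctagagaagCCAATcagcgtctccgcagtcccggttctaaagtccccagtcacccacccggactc
HLA-F: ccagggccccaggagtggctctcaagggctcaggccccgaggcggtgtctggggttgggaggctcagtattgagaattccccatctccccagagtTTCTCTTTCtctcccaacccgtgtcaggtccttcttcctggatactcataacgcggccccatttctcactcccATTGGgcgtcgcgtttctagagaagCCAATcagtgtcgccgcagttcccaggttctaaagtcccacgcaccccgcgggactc

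Counting the base before the start site as -1, TGACG lay at -75 to -71 in *B2M*, at -106 to -102 in *HLA-B* and at -105 to -101 in *HLA-C*, each upstream of an ATTGG. *HLA-F*, whose RNA was at or below the limit of detection in all 6 libraries, held ATTGG on both strands and no TGACG in this window. TGACG was present before the start of 4 of the 7 genes (*B2M*, *HLA-B*, *HLA-C* and *TAP2*), against 21.2% of all 35116 promoters, and ATTGG before that of 5 (*B2M*, *HLA-B*, *HLA-C*, *HLA-F* and *TAP1*), against 32.0%. Both were present in 3 genes (*B2M*, *HLA-B* and *HLA-C*), against 7.26% of all promoters. GAAANNGAA was found in 5 genes (*B2M*, *HLA-F*, *TAP1*, *TAP2* and *TAPBP*), against 6.88%, and the second phase, GAANNGAAA, searched after the data were seen, in *HLA-B*, *HLA-C* and *TAP2*, against 6.56%. In *B2M*, *TAP1* and *TAPBP* a pair of GAAANNGAA matches overlapped each other, and in *TAP2* the phases overlapped. GGGATTCCC occurred only in *HLA-B* among these 7 genes, against 0.362% of all promoters, and TTCNNNGAA only at the second start site of *TAP1*, against 6.57%. In the aligned 250 bases *HLA-B* and *HLA-C* were 89.0% identical and *HLA-B* and *HLA-F* 80.4%, while *HLA-B* and *B2M* shared 49.5%. A match is a run of letters and not a measured binding site.

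The authors deposited normalized values per gene and library, not whole reads. The step between low values gave depths of about 25804322 to 28503921 reads in the parental and 22430085 to 23270879 reads in the resistant libraries, and a value of 3 reads, used as the limit of detection, was 2.67 to 2.93 and 3.12 to 3.21, covering counting error only. The tuft-like SCLC factor *POU2F3* was high in all libraries (25809 ± 1178 parental, 27273 ± 535 resistant, SD, n = 3, limma adjusted p = 0.304). The other 6 tuft-like markers were also detected, and 4 of them rose, led by *TRPM5* (log2 fold change 1.77) and *CHAT* (1.72), while *AVIL* (-0.80) and *ASCL2* (-0.47) fell. *YAP1*, which marks another subtype, rose from 48.9 ± 6.86 to 111 ± 16.1 (log2 fold change 1.17, limma adjusted p = 0.00236). Of 8 blood cell markers, 6 were at or below the limit in all libraries, among them the leukocyte marker *PTPRC*, and their sum was 21.8 to 23.5 in parental and 15.2 to 32.6 in resistant libraries. Of 6 markers of fibroblasts and endothelium, *COL1A1*, *COL1A2* and *VWF* rose and the sum went from 382–530 to 824–1046, while *COL3A1* did not pass (18.0 ± 7.07 and 10.6 ± 4.33, log2 fold change -0.73) and *DCN* and *PECAM1* were at or below the limit in all libraries. The part of these markers in the results on the class I genes was not tested. In bulk RNA, more cells of a kind and more RNA per cell cannot be told apart.

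All 8 tested members were higher in resistant cells with an adjusted p under 0.05 (limma on log2(value + 1), Benjamini-Hochberg over all genes tested), where 17.8% of all genes tested were higher and 19.8% lower by the same rule. In 7 of the 8, all but *TAP2*, every resistant library lay above every parental one, against 24.0% of all genes tested. The median log2 fold change of the 8 was 0.88, and that of all genes tested was -0.00. The range ran from 0.38 for *TAP2* to 2.48 for *B2M*, so that the members rose by unequal amounts. Only 0.973% of the tested genes had a larger log2 fold change than *B2M* and 1.61% a larger one than *NLRC5*, and these shares were 4.66% for *HLA-B*, 8.61% for *TAPBP*, 9.89% for *HLA-E*, 11.7% for *HLA-C* and 11.8% for *TAP1*. *TAP2* came last, with 3593 genes above it. An exact two-sided permutation test of 3 libraries against 3 cannot go below p = 0.10, and it gave that value for each of the 7 genes whose groups did not overlap.

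**Figure D1:**
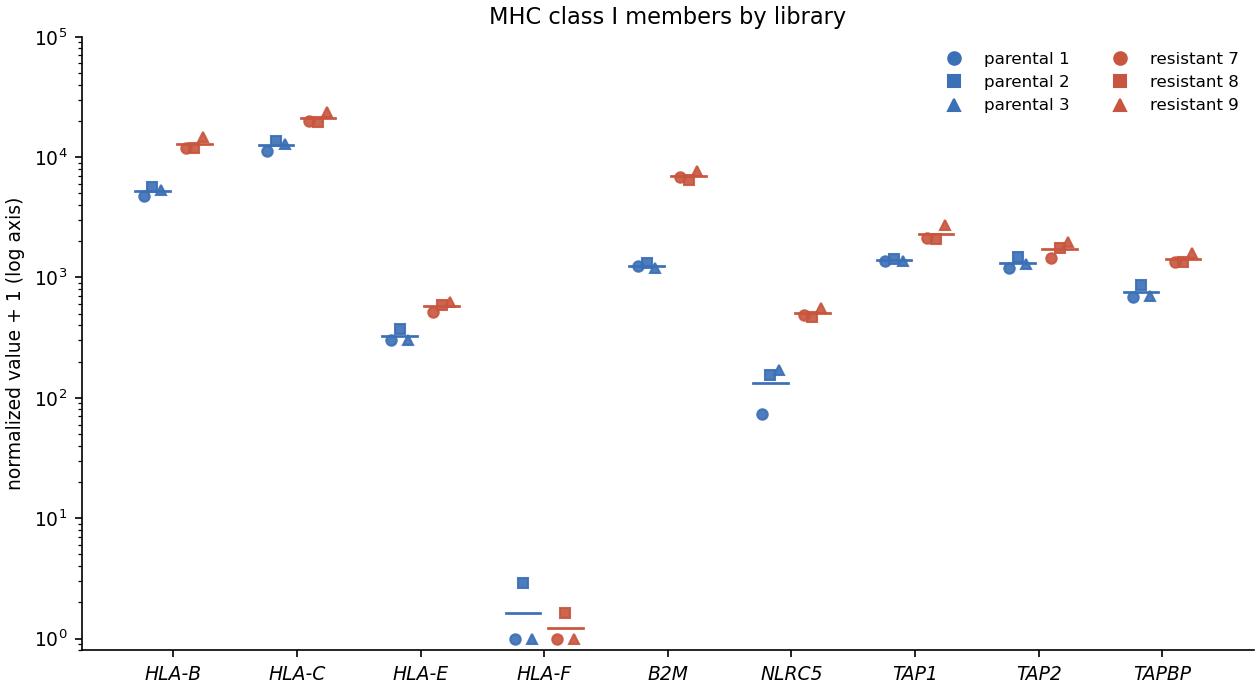
Normalized value + 1 (log axis) of the 9 class I genes in each parental (blue) and resistant (red) library, with the group mean as a line. The resistant libraries lie above the parental ones in all genes but *TAP2*, where 1458 in resistant 7 falls below 1472 in parental 2, and *HLA-F*, which is at 1.89 or lower throughout.

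Among the heavy chains, *HLA-B* (ENSG00000234745, chr6:31353872-31367067, minus strand), which presents peptides to cytotoxic T cells and binds receptors of natural killer cells, had normalized values of 4727, 5616 and 5378 in parental libraries 1, 2 and 3 and of 11882, 12012 and 14602 in resistant libraries 7, 8 and 9. The lowest resistant value was above the highest parental one. The difference was 2.45-fold, or 1.29 ± 0.09 on the log2 scale (SE, limma adjusted p = 6.33e-06). Log2 fold changes are given with their SE from here on, and are positive where resistant cells were higher.

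*HLA-C* (ENSG00000204525, chr6:31268749-31272130, minus strand), the main ligand among class I chains for killer cell immunoglobulin-like receptors, had values of 11299, 13648 and 12911 in parental and 19967, 19393 and 23522 in resistant libraries. It was the most abundant member in every library, and its groups did not overlap. The means were 12619 ± 1201 and 20961 ± 2237 (SD, n = 3). They lay 1.66-fold apart, and the log2 fold change was 0.73 ± 0.09 (SE, limma adjusted p = 0.000176).

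*HLA-E* (ENSG00000204592, chr6:30489509-30494194, plus strand) presents leader peptides of other class I chains to an inhibitory receptor of natural killer cells. Its values were 299, 370 and 303 in parental and 512, 595 and 622 in resistant libraries, with no overlap. It rose 1.78-fold, by a log2 fold change of 0.83 ± 0.13 (SE, limma adjusted p = 0.000642). *HLA-F* (ENSG00000204642, chr6:29722775-29738528, plus strand), which can reach the surface without peptide, was listed at 0 in 4 libraries and had 1.89 in parental 2 and 0.635 in resistant 8. It was at or below the limit of detection in every library and was therefore not tested. At this depth no difference in *HLA-F* was detectable.

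The light chain *B2M* (ENSG00000166710, chr15:44711358-44718851, plus strand) had values of 1233, 1327 and 1191 in parental and of 6869, 6455 and 7622 in resistant libraries. Its spread within a group was small beside the gap between the groups. With 5.59-fold, or 2.48 ± 0.08 on the log2 scale (SE, limma adjusted p = 4.29e-08), it rose more than any of these heavy chains.

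The heavy chains and the light chain meet in equal numbers in a class I molecule, so their balance was followed in each library. The summed value of *HLA-B*, *HLA-C*, *HLA-E* and *HLA-F* was 18184 ± 1692 in parental and 34369 ± 3795 in resistant cells (SD, n = 3), 1.89-fold higher. Divided by the value of *B2M*, this sum was 13.2, 14.8 and 15.6 in parental and 4.71, 4.96 and 5.08 in resistant libraries. The ratio thus fell from 14.6 ± 1.20 to 4.92 ± 0.189, a 2.96-fold difference with a gap between the groups far wider than either SD. Since a longer transcript gives more reads, the ratio was also taken with each value divided by the length of the canonical transcript, where it was 8.85 ± 0.735 in parental and 2.99 ± 0.115 in resistant cells. Without *HLA-B* it went from 10.4 to 3.08. Each heavy chain that was detected fell against *B2M*: the ratio of *HLA-B* to *B2M* from 4.19 ± 0.342 to 1.84 ± 0.0955, that of *HLA-C* from 10.1 ± 0.854 to 2.999 ± 0.0897 and that of *HLA-E* from 0.259 ± 0.0184 to 0.0827 ± 0.00886.

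Within the heavy chains the mixture also shifted. Per length of the longest transcript, *HLA-B* made up 17.9%, 17.6% and 17.8% of the heavy chain sum in parental and 23.6%, 24.3% and 24.4% in resistant libraries, while *HLA-C* went from 80.7% ± 0.118 to 74.4% ± 0.499 (SD, n = 3). The longest annotated transcript of *HLA-B* has 3547 bases and the canonical one 1536, and with canonical lengths, an alternative added after the data were seen, the share of *HLA-B* was higher throughout, 29.1% ± 0.190 against 37.7% ± 0.536, and that of *HLA-C* lower, 69.8% ± 0.157 against 61.3% ± 0.588. The direction was the same with either length, and neither gene's groups overlapped. The share of *HLA-E* per canonical length was 1.08% ± 0.0829 and 1.02% ± 0.0938, with overlapping groups. Heavy chain genes resemble each other, which makes the split of reads between them uncertain: of the windows of 50 bases in the canonical transcript, 2.56% in *HLA-B*, 6.76% in *HLA-C* and 4.76% in *HLA-E* also occur in another class I transcript of the reference. Reads were assigned to the reference alleles, and the alleles of H526 were not examined.

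**Figure D2:**
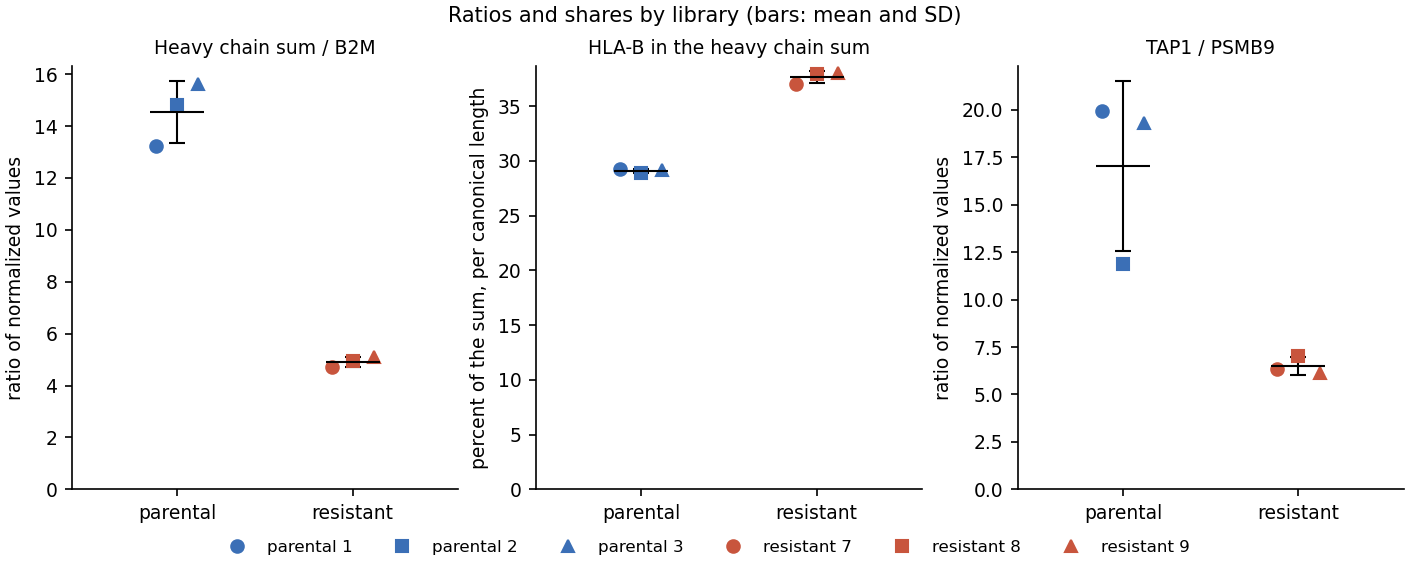
Ratio of the heavy chain sum to *B2M* (left), percent of the heavy chain sum from *HLA-B* per canonical transcript length (middle) and ratio of *TAP1* to *PSMB9* (right) in each library, with bars for mean and SD (n = 3). The first falls from 14.6 to 4.92, the second rises from 29.1% to 37.7% and the third falls from 17.0 to 6.49, in each case with no overlap between parental and resistant libraries.

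*NLRC5* (ENSG00000140853, chr16:56989485-57083531, plus strand), the transactivator of class I genes, was the least abundant tested member, with values of 72.4, 154 and 171 in parental and of 482, 469 and 560 in resistant libraries. Parental 1 was well below the other parental libraries, and all resistant values lay above all parental ones. The means were 132 ± 52.4 and 504 ± 48.9 (SD, n = 3), 3.81-fold apart, and the log2 fold change was 2.01 ± 0.27 (SE, limma adjusted p = 0.000325). Without parental 1 it was smaller, 1.63, which was the lowest over all alternatives.

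The transporter subunits moved by different amounts. *TAP1* (ENSG00000168394, chr6:32845209-32853816, minus strand) had values of 1358, 1418 and 1376 in parental and of 2145, 2071 and 2707 in resistant libraries. The groups were apart, and resistant 9 stood above the other two. The means were 1384 ± 30.6 and 2308 ± 347 (SD, n = 3). They lay 1.67-fold apart, and the log2 fold change was 0.73 ± 0.10 (SE, limma adjusted p = 0.000335).

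*TAP2* (ENSG00000204267, chr6:32821833-32838739, minus strand), its partner in the heterodimer, had 1192, 1472 and 1302 in parental and 1458, 1757 and 1964 in resistant libraries. Its groups overlapped, since resistant 7 lay below parental 2. Its log2 fold change of 0.38 ± 0.12 (SE) passed with a limma adjusted p of 0.0274, and the exact two-sided permutation p was 0.20. The call of *TAP2* was lost without the intensity trend (adjusted p = 0.0948) and when parental 1, parental 3, resistant 8 or resistant 9 was left out (limma adjusted p between 0.0761 and 0.0977), with log2 fold changes between 0.28 and 0.37. The ratio of *TAP1* to *TAP2* was 1.14, 0.963 and 1.06 in parental and 1.47, 1.18 and 1.38 in resistant libraries, 1.05 ± 0.0884 against 1.34 ± 0.149. These groups did not overlap, although the lowest resistant ratio, 1.18, was close to the highest parental one, 1.14.

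*TAPBP* (ENSG00000231925, chr6:33299694-33314284, minus strand), which encodes tapasin, had values of 689, 869 and 698 in parental and of 1343, 1336 and 1597 in resistant libraries. All resistant values were above all parental ones. The means were 752 ± 101 and 1425 ± 149 (SD, n = 3). This 1.90-fold rise was 0.92 ± 0.11 as a log2 fold change (SE, limma adjusted p = 0.000163).

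The library kit named in the protocol does not mark the strand, so genes that overlap these members may share reads with them. *TAP1* overlaps *PSMB9* and *PSMB8-AS1* on the other strand, and the latter had means of 30.0 in parental and 132 in resistant libraries. *TAP2* overlaps a read-through gene on its own strand (ENSG00000250264), whose mean was 225 in parental and 143 in resistant cells, against the direction of *TAP2*. *TAPBP* overlaps a long noncoding RNA on the other strand (ENSG00000289100), with means of 107 and 176.

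Levels of different genes can be compared only per length. Per kilobase of canonical transcript, the order in parental cells was *HLA-C* (8184 ± 779), *HLA-B* (3412 ± 299), *B2M* (1326 ± 73.6), *TAP1* (515 ± 11.4), *TAP2* (234 ± 25.1), *TAPBP* (218 ± 29.4), *HLA-E* (127 ± 15.6) and *NLRC5* (19.5 ± 7.73), each as mean normalized value ± SD (n = 3). The ranges of mean ± SD overlapped for *TAP2* and *TAPBP*, and for no other neighbours in this order. In resistant cells the order was *HLA-C* (13593 ± 1451), *HLA-B* (8354 ± 999), *B2M* (7404 ± 627), *TAP1* (859 ± 129), *TAPBP* (413 ± 43.2), *TAP2* (306 ± 45.1), *HLA-E* (226 ± 22.6) and *NLRC5* (74.3 ± 7.22). *B2M*, well below *HLA-B* in parental cells, overlapped *HLA-B* in its range of mean ± SD in resistant cells, the only neighbours that did, and *TAPBP* passed *TAP2*.

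The members also varied together in part within each group. Resistant 9 was the highest resistant library in 8 of the 8 tested members, against 34.5% of all genes tested, and parental 2 was the highest parental library in 7, against 33.3%. The lowest resistant library was resistant 8 in 5 members and resistant 7 in 3, against 36.1% and 32.5% of all genes tested. Parental 1 was the lowest in 7 of the 8, against 35.4% of all genes. The ratio of heavy chains to *B2M* did not fully divide out this order. Parental 1, at 13.2, still had the lowest parental ratio and resistant 9, at 5.08, the highest resistant one. The highest parental ratio, 15.6, was that of parental 3 and not of parental 2.

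Genes along the chromosome were compared with the 25 tested genes on either side of each member. Around *B2M*, on chromosome 15, 28 of the 50 neighbours were higher by limma and 6 lower, with a median log2 fold change of 0.47. All 6 lower ones lay on 1 side, at *HYPK* (9 tested genes before *B2M*) or further. From *MFAP1* (8 before) to *ATP8B4* (25 after) none was lower, so *B2M* lay in a raised stretch near its edge. The log2 fold change of *B2M* was above that of all but 2 of the 50 neighbours (*DUOXA2* and *DUOX2*). Local median centring took the shift shared by the genes around a gene out of each library. After it, *B2M* was at 2.01 instead of 2.48, still called. The window of this centring spanned both stretches, so it took out less than the shift of the raised one. Around *NLRC5*, on chromosome 16, 5 neighbours were higher and 12 lower, with a median of -0.07, and 1 exceeded *NLRC5*. Around the members on chromosome 6 the medians lay between -0.07 and -0.00. Of the 50 neighbours of *HLA-B*, 7 were higher and 10 lower. Of those of *TAP1*, 12 were higher, including *PSMB8* and *PSMB9*, and 12 lower. All these counts of neighbours stand beside 17.8% of all genes tested that were higher and 19.8% that were lower.

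**Figure D3:**
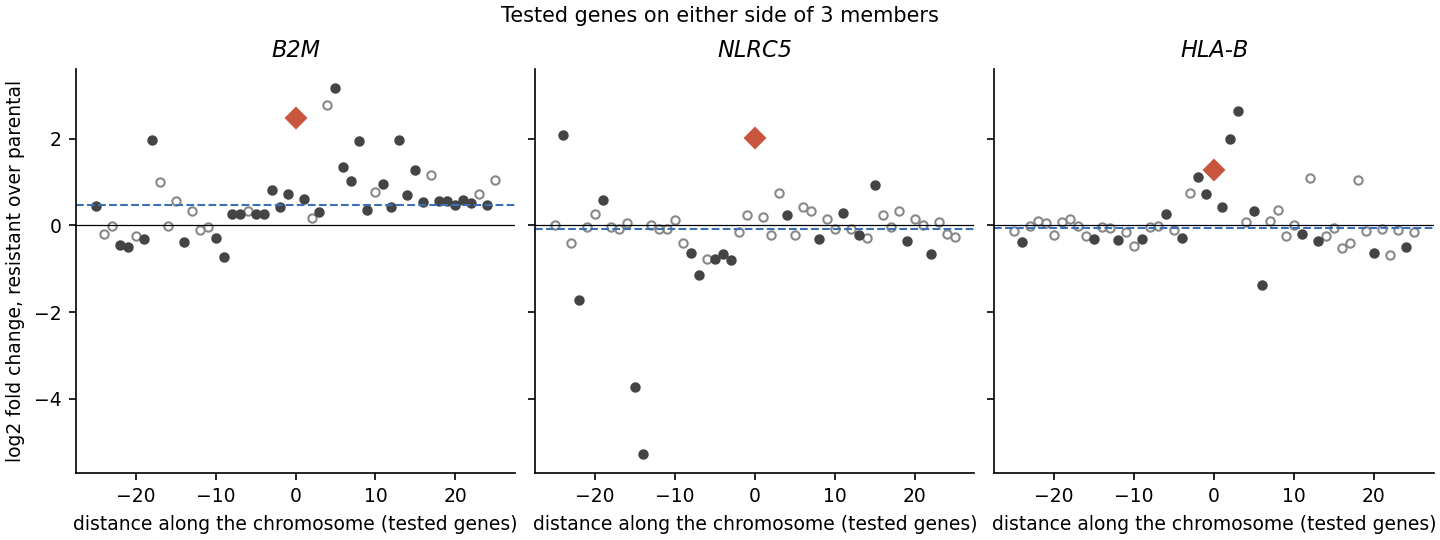
Log2 fold change of *B2M*, *NLRC5* and *HLA-B* (red diamonds) and of the 25 tested genes on either side (filled: adjusted p under 0.05), against the distance counted in tested genes, with the median of the neighbours as a dashed line. The median is 0.47 around *B2M* and -0.07 around *NLRC5* and *HLA-B*.

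By distance between profiles of log2(value + 1) over the 6 libraries, each centred on the gene's own mean, the genes outside the lists nearest to *B2M* were *FOXA3*, a forkhead factor (distance 0.256), an unnamed gene on chromosome 21 (ENSG00000235023, 0.268) and *SNED1* (0.337). Their log2 fold changes were 2.34, 2.56 and 2.48. Nearest to *NLRC5* were *TLR5*, the receptor of bacterial flagellin (distance 0.388), *PSMB8-AS1* (0.424) and *A2M-AS1* (0.436), with log2 fold changes of 1.97, 2.17 and 2.23. These distances are descriptions over 6 libraries that share their groups, so similar log2 fold changes follow from the choice. The parental mean of ENSG00000235023 was 4.41, close to the limit of detection, and those of *TLR5* and *A2M-AS1* were 10.2 and 9.09.

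Outside the 9 members, 57 rows of 7 lists of pathway genes were counted. Of these, 38 were tested, 14 were higher, 4 lower and 20 did not pass, with a median log2 fold change of 0.25. Of all genes tested, 17.8% were higher and 19.8% lower by the same rule. The lists did not move as a block.

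Of 9 rows of other heavy chain genes and copies of the class I region, 2 were tested. The pseudogene *HLA-H* rose from 32.7 ± 2.72 to 69.7 ± 14.1 (log2 fold change 1.05 ± 0.25, limma adjusted p = 0.00859). The tested row of *HLA-L* (ENSG00000291097) did not pass (-0.25 ± 0.28), and the remaining 7 rows, *HLA-G* among them, were at or below the limit in all libraries.

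Of 11 genes for other chains that pair with *B2M* or resemble class I, 5 were tested, and 3 rose. *MR1*, which presents metabolites of vitamin B synthesis to mucosal-associated invariant T cells with *B2M*, had values of 111, 116 and 143 in parental and of 309, 208 and 294 in resistant libraries (log2 fold change 1.11 ± 0.19, limma adjusted p = 0.00126). *MICB* (0.34 ± 0.10, adjusted p = 0.0221) and *MICA* (0.44 ± 0.15, adjusted p = 0.0436), stress ligands of natural killer cells that need no light chain, also rose, but each lost its call when any of 4 libraries was left out, and *MICA* also with no filter (adjusted p = 0.0581) and without the trend (adjusted p = 0.0726). *AZGP1*, a secreted class I-like protein, fell by 0.33 on the log2 scale (SE 0.08, limma adjusted p = 0.0106), whereas after local median centring it was 0.21 higher with no call (adjusted p = 0.121), and without the trend the call was also lost (adjusted p = 0.0538). *FCGRT*, the heavy chain of the neonatal Fc receptor, did not pass (-0.09 ± 0.10), and *HFE* and *CD1A* to *CD1E* were at or below the limit.

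Of 6 other genes of peptide loading and trimming, the aminopeptidases that trim peptides in the endoplasmic reticulum rose most. *ERAP2* had values of 113, 97.1 and 99.8 in parental and of 430, 502 and 485 in resistant libraries (log2 fold change 2.18 ± 0.14, limma adjusted p = 2.99e-06). *ERAP1* rose from 99.1 ± 11.1 to 256 ± 60.1 (1.34 ± 0.20, limma adjusted p = 0.000589). The chaperone *CANX*, which holds new heavy chains, fell by 0.30 on the log2 scale (SE 0.08, limma adjusted p = 0.0136), a call lost without the trend (adjusted p = 0.0731) or without resistant 8 (adjusted p = 0.0538). *CALR* (-0.20 ± 0.08), *PDIA3* (-0.10 ± 0.07) and *TAPBPL* (0.42 ± 0.29) did not pass, although *PDIA3* was called lower after local median centring (-0.42, adjusted p = 0.00131) and *CALR* without resistant 9 (-0.27, adjusted p = 0.0386).

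Of 5 genes of the immunoproteasome and its activator, *PSMB8* and *PSMB9*, catalytic subunits encoded beside *TAP1*, rose. *PSMB8* went from 606 ± 48.1 to 1598 ± 97.7 (SD, n = 3; log2 fold change 1.40 ± 0.09, limma adjusted p = 3.31e-06). *PSMB9*, which shares a bidirectional promoter with *TAP1*, had values of 68.0, 119 and 71.3 in parental and of 339, 295 and 443 in resistant libraries (2.07 ± 0.24, limma adjusted p = 0.000115). The ratio of *TAP1* to *PSMB9* was 20.0, 11.9 and 19.3 in parental and 6.33, 7.02 and 6.11 in resistant libraries, so that *PSMB9* rose more than *TAP1* in all pairs of libraries across the groups. The activator subunit *PSME2* rose by 0.30 ± 0.08 (limma adjusted p = 0.0135), but was at -0.02 after local median centring, and its call was lost without parental 3 (adjusted p = 0.0580) or resistant 9 (adjusted p = 0.0522). *PSMB10* (-0.34 ± 0.16) and *PSME1* (0.16 ± 0.08) did not pass.

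The 8 factors of the class I promoter complex did not follow *NLRC5*. *ATF1* fell by 0.69 (SE 0.12, limma adjusted p = 0.00129) and *RFX5* by 0.39 (SE 0.07, limma adjusted p = 0.00208), both on the log2 scale. *RFXAP* rose by 0.33 ± 0.11 (limma adjusted p = 0.0340), a call lost without the trend, after local median centring and in 5 of the 6 fits that left out a library. The other 5, *RFXANK*, *CREB1*, *NFYA*, *NFYB* and *NFYC*, did not pass, although *NFYB* was called lower without resistant 7 (-0.54, adjusted p = 0.00711).

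Of 6 interferon and NF-kB factors that act on class I promoters, *IRF2* and *IRF1* rose. *IRF1*, an activator of interferon-response genes, had values of 121, 177 and 124 in parental and of 224, 643 and 570 in resistant libraries, with resistant 7 far below the other two (log2 fold change 1.65 ± 0.34, limma adjusted p = 0.00393). *IRF2*, which binds the same sites, went from 290 ± 9.33 to 480 ± 10.7 (0.73 ± 0.10, limma adjusted p = 0.000439). The other 4, *IRF9*, *STAT2*, *NFKB1* and *RELA*, did not pass, although *STAT2* was called higher after local median centring (0.78 against 0.20, adjusted p = 0.000226).

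Of 12 genes of MHC class II, which presents peptides to helper T cells, 6 were tested, and the chains of HLA-DP rose. *HLA-DPB1* had values of 62.7, 126 and 66.9 in parental and of 414, 533 and 596 in resistant libraries (log2 fold change 2.64 ± 0.26, limma adjusted p = 3.86e-05). *HLA-DPA1* went from 52.2 ± 14.4 to 152 ± 31.5 (1.54 ± 0.26, limma adjusted p = 0.00127). Their transactivator *CIITA*, a relative of *NLRC5*, had 24.3, 7.74 and 45.5 in parental and 93.2, 13.8 and 97.2 in resistant libraries and did not pass (1.25 ± 0.76, limma adjusted p = 0.228). Resistant 8 fell within the parental range, and without it the log2 fold change of *CIITA* was 2.15 (limma adjusted p = 0.0261). *CD74*, *HLA-DMA* and *HLA-DMB* did not pass, and *HLA-DRA*, *HLA-DRB1* and *HLA-DQA1* were listed at 0 in all libraries.

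**Figure D4:**
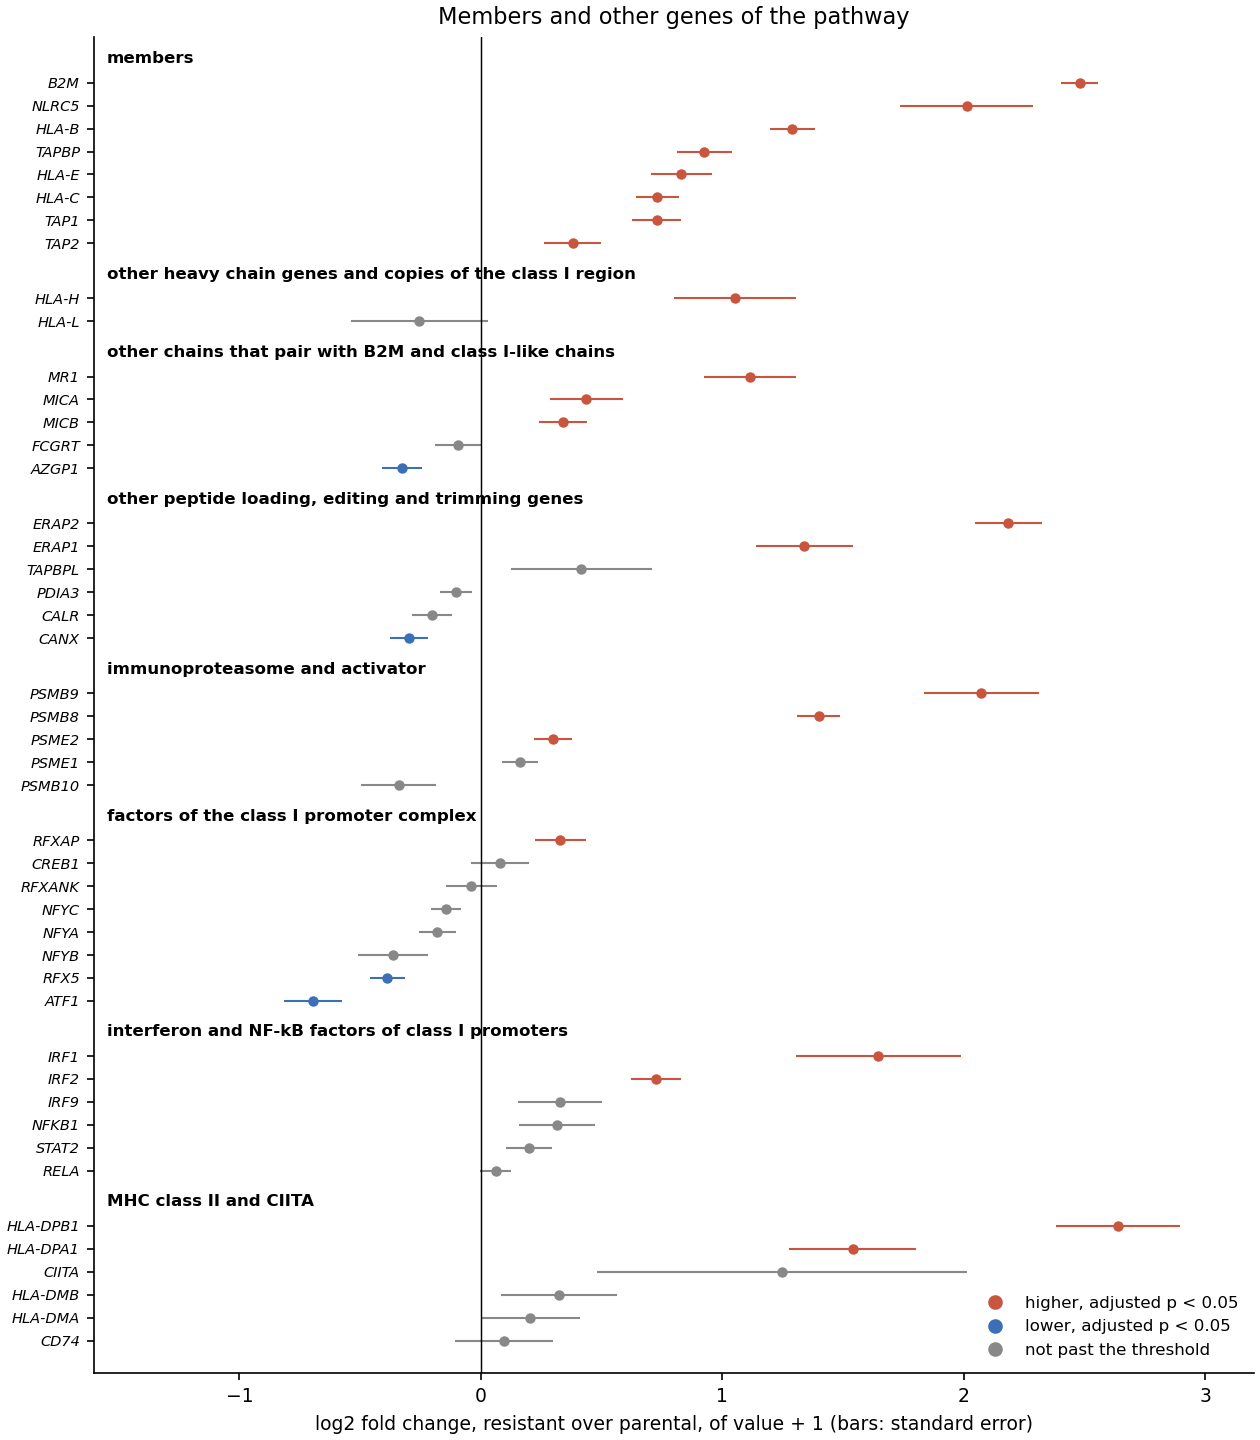
Log2 fold change of value + 1 (resistant over parental) with its standard error for the 8 tested members and the 38 tested genes of the other lists, coloured by the limma call at an adjusted p of 0.05. All 8 members lie right of 0, from 0.38 for *TAP2* to 2.48 for *B2M*, while the factors of the promoter complex lie between -0.69 and 0.33.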

How the data were processed

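Total RNA of parental and resistant H526 cells was sequenced from NEBNext Ultra libraries. The authors trimmed the reads with Trimmomatic 0.38, aligned and quantified them with RSEM 1.3.1 on the GRCh38 primary assembly with Gencode v43, and deposited a DESeq2-normalized signal per gene and library. The share of low values that were multiples of 1 step was 30.4% to 59.3% (tolerance 0.02), so whole reads were not recovered and the count model of the study was not run.

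Of 62757 rows, 47 second copies of pseudoautosomal genes were left out, and 62639 of the 62710 others matched Gencode v44, which gave symbols, positions and lengths. Genes with a mean of at least 10 entered a fit of condition alone by limma 3.58.1 in R 4.3.3, on log2(value + 1) and with a trend of variance on intensity. P-values were adjusted by Benjamini-Hochberg at 0.05, and the fit was tested on simulated data. A log2 fold change on this scale understates that of low genes. Ratios and shares were computed per library with Python 3.11.15, with no test.

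The members, lists and tests were chosen with earlier results of these data known. From each list the text names up to 3 called genes with the smallest p, with *CIITA*, *PSMB9* and *IRF1* named whatever their values and the 3 nearest profiles of *B2M* and *NLRC5*. All other genes named were chosen after their values were seen, and some genes of these lists are not reported here. The alternatives tried were a pseudocount of 0.1 or 10, dropping the filter or raising it to 50, quantile and median ratio scaling, no trend, local median centring and each library left out in turn.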

Additional observations from a re-analysis of the deposited data

How the results depend on the processing

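Of the 8 tested members, all but *TAP2* kept their direction and call under all 14 alternatives, with log2 fold changes of 2.01 to 2.54 for *B2M*, 1.63 to 2.24 for *NLRC5*, 1.19 to 1.38 for *HLA-B* and 0.65 to 0.87 for *HLA-C*. *TAP2* stayed positive, 0.28 to 0.50, and lost its call under 5. The number of members called was 7 or 8 with a library left out. Of the pathway genes outside the members, 14 were higher, against 13 after local median centring, 12 with no trend and 10 to 15 with a library left out. The number lower was 4, against 2 with no trend and 3 to 5 with a library left out. The level of the ratio of the heavy chain sum to *B2M* depended on the scaling by length and on what was summed. Not divided by length it was 14.6 in parental and 4.92 in resistant cells, and without *HLA-B* 10.4 and 3.08. Per canonical length it was 8.85 and 2.99, and per longest length 15.5 and 5.00. The fold between the groups varied less. It was 2.96 not divided by length, 2.96 per canonical length, 3.10 per longest length and 3.36 without *HLA-B*. Local median centring reversed *AZGP1* to 0.21 and *PSME2* to -0.024, and added calls of *STAT2* (0.78) and *PDIA3* (-0.42). Leaving out 1 library added calls of *CIITA*, *CALR* and *NFYB*. The cause of these changes was not tested. No paired analysis was possible because parental (1 to 3) and resistant libraries (7 to 9) share no number. At this depth *HLA-F* was at or below the limit of detection, and with 3 libraries per group a permutation test could not pass 0.05.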

Other observations

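Near the members, some genes outside the lists had large log2 fold changes in either direction, and only examples are given. *HCP5*, a noncoding gene of the class I region 3 tested genes from *HLA-B*, had 2.64 (limma adjusted p = 2.28e-06). *DUOXA2*, 5 tested genes from *B2M* and a maturation factor of a dual oxidase, had 3.18 (limma adjusted p = 0.0227). *ITPR3*, near *TAPBP*, had 3.17 (limma adjusted p = 3.77e-05). Large falls were seen at *GNAO1*, near *NLRC5* (-5.29, limma adjusted p = 9.84e-06), and at *GABBR1*, beside *HLA-F* (-3.62, limma adjusted p = 0.000712). Among the class II genes counted above, *HLA-DOA*, a chain that inhibits peptide editing, was too low to be tested and has no fitted fold change, with values of 2.32, 5.05 and 1.28 in parental and of 18.9, 6.21 and 19.0 in resistant libraries, and resistant 8 was the lowest of its group, as it was in *CIITA*.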
